A study of Mus musculus with 4 samples.

Results

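The linker histone H1 genes described here are *Hist1h1a*, *Hist1h1b*, *Hist1h1c*, *Hist1h1d*, *Hist1h1e*, *Hist1h1t*, *H1f0* and *H1fx*, 8 of the 11598 genes in a deposited table of ribosome-protected fragments (RPFs). The rule that defines them is the gene symbol and presence in that table, which uses total reads, and the choice of this family was not blind to its changes. The lowest total of any gene in the table was 10 reads over the 4 libraries, and the lowest among the 8 was 170 reads, for *Hist1h1b*. The 7 somatic genes were set beside the testis gene *Hist1h1t* as a description, with no test between genes.

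RPFs are the pieces of mRNA that ribosomes shield from nuclease. Here they were sequenced from leptotene/zygotene spermatocytes of mouse testes at 12 dpp, sorted by FACS after Hoechst staining, to ask how loss of the elongation factor subunit eEF1G alters translation in early meiosis. The 2 *Eef1g*-cKO libraries came from mice in which the *Stra8*-GFPCre transgene, active in male germ cells from spermatogonia onward, removed exons of a floxed *Eef1g* gene made on a C57BL/6J background. The 2 control libraries came from littermates whose genotype the labels give as wild type. Whether these carried a floxed allele or Cre is not given in the sources used here. The replicates are described as biologically independent, and whether a library pooled several animals is likewise not given.

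Depth differed between the genotypes. Control replicate 1 held 2479504 counted reads and control replicate 2 held 1384282, whereas *Eef1g*-cKO replicate 1 held 223906 and replicate 2 held 407979, so mean depth was 6.11-fold higher in control. Levels are given as FPKM, which scales reads to gene length and to the counted reads of the library and allows genes of different length to be compared. Sums over genes are given as RPM, reads per 1000000 counted reads. On a gene of 750 bases, close to the length of a clustered H1 gene, 1 read was worth 0.538 and 0.963 FPKM in control and 5.95 and 3.27 FPKM in *Eef1g*-cKO. RPF levels alone do not separate mRNA abundance from the number of ribosomes on each mRNA.

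Linker histones bind the nucleosome where DNA enters and leaves it and promote folding of the chromatin fibre. *Hist1h1a* to *Hist1h1e* lie in the large histone gene cluster and encode the replication-dependent somatic subtypes, whose mRNAs end in a stem-loop bound by SLBP instead of a poly(A) tail. *Hist1h1t* lies in the same cluster but encodes H1t, a subtype made in spermatocytes and widely used as a marker of mid-pachytene and later cells, while *H1f0* and *H1fx* lie outside it and encode replication-independent replacement subtypes.

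In the RefSeq annotation of GRCm38.p6, where all 8 genes were found, each has 1 coding exon and none overlaps another annotated gene. The 6 clustered genes lie on chromosome 13, *H1f0* on chromosome 15 and *H1fx* on chromosome 6. The coding exon of *Hist1h1t* is at chr13:23695866-23696495 on the plus strand and that of *Hist1h1e* at chr13:23621838-23622497 on the minus strand. Those of *Hist1h1a* and *Hist1h1c* are at chr13:23763717-23764358 and chr13:23738849-23739487, both on the plus strand.

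The promoters of these 4 genes are printed because *Hist1h1e* and *Hist1h1t* showed the largest increases among the 8 and *Hist1h1a* and *Hist1h1c* were the most abundant. Each runs from 250 bases before to 50 bases after the gene start (RefSeq, GRCm38.p6), at chr13:23695561-23695860 (plus strand), chr13:23622509-23622808 (minus strand), chr13:23763418-23763717 (plus strand) and chr13:23738557-23738856 (plus strand). Capitals mark matches on either strand to TATAAA, as found in TATA boxes, to CCAAT, and to AAACACA, the core of the element known as the H1 box. The motifs share no letters where they match.
Hist1h1t: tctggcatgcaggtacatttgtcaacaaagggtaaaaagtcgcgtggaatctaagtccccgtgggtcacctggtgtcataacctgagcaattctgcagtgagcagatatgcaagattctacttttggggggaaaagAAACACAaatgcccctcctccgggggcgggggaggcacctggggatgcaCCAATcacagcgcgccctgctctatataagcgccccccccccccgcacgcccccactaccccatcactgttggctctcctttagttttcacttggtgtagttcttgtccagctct
Hist1h1e: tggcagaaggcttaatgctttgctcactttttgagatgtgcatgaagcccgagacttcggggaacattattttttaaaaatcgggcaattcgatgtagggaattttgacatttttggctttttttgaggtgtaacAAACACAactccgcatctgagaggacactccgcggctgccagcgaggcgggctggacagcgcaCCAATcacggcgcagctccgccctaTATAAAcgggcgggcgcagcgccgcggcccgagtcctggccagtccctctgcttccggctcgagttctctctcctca
Hist1h1a: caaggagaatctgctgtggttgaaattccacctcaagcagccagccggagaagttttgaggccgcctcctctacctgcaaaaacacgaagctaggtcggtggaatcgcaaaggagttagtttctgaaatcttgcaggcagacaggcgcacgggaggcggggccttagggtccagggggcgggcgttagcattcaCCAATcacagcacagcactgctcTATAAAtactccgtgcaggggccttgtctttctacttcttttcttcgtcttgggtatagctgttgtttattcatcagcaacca
Hist1h1c: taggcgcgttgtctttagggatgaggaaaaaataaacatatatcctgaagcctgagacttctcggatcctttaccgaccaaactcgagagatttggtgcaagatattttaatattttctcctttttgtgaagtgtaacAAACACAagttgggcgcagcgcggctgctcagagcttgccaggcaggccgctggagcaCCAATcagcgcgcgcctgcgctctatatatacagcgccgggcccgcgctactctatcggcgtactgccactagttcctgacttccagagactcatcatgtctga
AAACACA was matched in the promoters of *Hist1h1b*, *Hist1h1c*, *Hist1h1d*, *Hist1h1e* and *Hist1h1t*, and its letters were not in the windows of *Hist1h1a*, *H1f0* and *H1fx*. It began 114 bases before the start of *Hist1h1t*, 115 before that of *Hist1h1e* and 112 before that of *Hist1h1c*, and 7.18% of all 32851 RefSeq promoters of this length held it. CCAAT was matched in all 6 clustered genes, at 65 bases before the start of *Hist1h1t*, 52 before *Hist1h1e*, 56 before *Hist1h1a* and 54 before *Hist1h1c*, and in 37.4% of all promoters. TATAAA was matched in *Hist1h1a*, *Hist1h1b*, *Hist1h1d* and *Hist1h1e* and in 13.6% of all promoters. CCAAT and AAACACA occurred together in 2.67% of all promoters.

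The 3' stem-loop, which marks replication-dependent histone mRNAs, was searched as a perfect 6-base stem beginning with GG around a 4-base loop beginning with TT, within 120 bases after the stop codon. It was found in all 6 clustered genes, *Hist1h1t* included, and not found in *H1f0* or *H1fx*. The stem began 29 bases after the stop codon of *Hist1h1t*, 40 after that of *Hist1h1e* and 33 after that of *Hist1h1a*. The 3 sites shown are at chr13:23696520-23696545 (plus strand), chr13:23621777-23621802 (minus strand) and chr13:23764387-23764412 (plus strand) of GRCm38.p6 in RefSeq, and capitals mark the stem.
Hist1h1t: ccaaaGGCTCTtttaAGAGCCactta
Hist1h1e: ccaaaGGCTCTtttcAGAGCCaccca
Hist1h1a: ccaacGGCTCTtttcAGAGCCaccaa

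Between the 5 clustered somatic proteins, pairwise identity ranged from 64.3% to 86.4% over 10 pairs and was highest between those of *Hist1h1d* and *Hist1h1e*. H1t was more distant, at 49.5% to 54.7% from each of the 5. The proteins of *H1f0* and *H1fx* were further away, at 39.7% to 42.3% and 31.7% to 34.6% from the 5. Lysine made up 19.1% of H1t and 27.2% to 29.1% of the clustered somatic proteins, against a median of 5.34% over 21707 coding genes. Arginine ran the other way, with 6.70% in H1t and 1.35% to 2.28% in the clustered somatic proteins. Outside the cluster the protein of *H1f0* had 28.4% lysine and 3.61% arginine, and that of *H1fx* 13.8% and 10.1%.

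The targeted gene *Eef1g* was read first, as a check of the labels. Its reads numbered 107 and 58 in control against 0 and 4 in *Eef1g*-cKO, which is 27.6 and 26.8 FPKM against 0 and 6.26 FPKM. Both *Eef1g*-cKO libraries were below both control libraries, as labelled. These values cover the whole gene and not the deleted exons alone.

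The labelled cell type was checked against marker lists, each given as its summed RPM. Counts of called markers are set beside the shares of all genes that each method tested. limma put 2.87% of them higher and 4.97% lower after adjustment, and 7.32% and 16.3% without it. For edgeR these shares were 8.75% and 11.2%, and for DESeq2 4.33% and 3.89%. All 18 leptotene/zygotene markers were found, none at 0 in both libraries of a genotype. They summed to 5876 and 4665 RPM in control and to 11518 and 11437 RPM in *Eef1g*-cKO, led by *Sycp3*, a component of the synaptonemal complex (811 and 716 FPKM against 2217 and 1778 FPKM). Their median log2 fold change was 1.02, and limma called 8 higher and 0 lower by adjusted p, 9 and 0 by unadjusted p, and edgeR 11 and 0. The 15 spermatogonia markers moved the other way, with sums of 2847 and 3417 RPM in control and 527 and 517 RPM in *Eef1g*-cKO. Their most abundant gene was *Uchl1* (1011 and 1138 FPKM against 140 and 120 FPKM), and *Upp1* had 0 reads in both *Eef1g*-cKO libraries. limma called 7 of them lower and 0 higher by adjusted p, 11 and 0 by unadjusted p, and edgeR 9 and 0. The median was −2.00, or −1.41 with the 7 genes that had at most 3 reads in both libraries of a genotype set to 3 reads there. This floor is higher in *Eef1g*-cKO. On a gene of 750 bases, 3 reads are 17.9 and 9.80 FPKM there, against 1.61 and 2.89 FPKM in control. Medians at the floor, here and below, are thus limits that depend on depth and not measured changes. Of 4 preleptotene markers 2 were analysed, at 424 and 467 RPM in control and 237 and 179 RPM in *Eef1g*-cKO, with a median of −0.88. *Stra8*, the more abundant, fell from 260 and 252 FPKM to 126 and 96.0 FPKM and was the 1 gene called, lower by limma, edgeR and DESeq2.

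Of 19 pachytene and later markers 10 were analysed, and *Ccna1*, *Pgk2* and *Acrv1* were among those not analysed here. The 10 came to 813 and 614 RPM in control and 1134 and 1186 RPM in *Eef1g*-cKO, led by *Hspa2* (163 and 128 FPKM against 225 and 277 FPKM), with a median of 0.37 (0.44 with 2 genes at the floor of 3 reads). limma called 1 higher and 0 lower by adjusted p, 1 in each direction by unadjusted p, and edgeR 1 and 0. The 4 spermatid markers analysed of 12 gave 191 and 179 RPM against 138 and 169 RPM, led by *Odf2*, with *Prm2* at 0 reads in both *Eef1g*-cKO libraries. Their median was −1.43, or 0.94 with 3 at the floor, which is no measured rise, and limma called 0 by either p and edgeR 0.

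Somatic cells of the testis were represented by 14 of 16 Sertoli cell markers, at 1992 and 761 RPM in control and 960 and 772 RPM in *Eef1g*-cKO. *Ctsl* led them and *Gata4* was at 0 reads in both *Eef1g*-cKO libraries. limma called 0 of them by adjusted p, 4 lower by unadjusted p, edgeR 5 lower and DESeq2 1 lower, with a median of −1.40 (−0.63 with 6 at the floor). The 9 peritubular and stromal markers, of 10, summed to 387 and 366 RPM against 130 and 120 RPM, led by *Acta2*. Of the 8 tested, limma called 1 lower by adjusted p and 5 by unadjusted p, and edgeR 4, with a median of −1.47 (−1.27 with 1 at the floor). The 3 Leydig markers analysed of 8, with *Cyp11a1* and *Hsd3b1* at 0 in *Eef1g*-cKO, reached at most 11.6 RPM in any library, and the 2 blood and endothelial markers of 8 at most 10.1 RPM. Their medians were −0.28 and 0.81 (1.28 and 1.47 with all tested genes at the floor, again no measured rise), and limma by either p and edgeR called 0. Of 9 macrophage markers 0 could be analysed. In each of these marker lists, and in the lists further below, DESeq2 also called 0 in a direction where limma and edgeR called 0. The higher leptotene/zygotene sums and lower spermatogonia sums in *Eef1g*-cKO stand beside every H1 result below, and their part in those results was not tested. In bulk samples, fewer cells of a type and less RNA per cell cannot be told apart.

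Of the 8 H1 genes, 4 were called higher in *Eef1g*-cKO than in control by limma and 0 lower. The most abundant ones, *Hist1h1a* and *Hist1h1c*, were among those not called. The genotypes were compared with limma on log2(FPKM + 1) over the 10475 genes whose mean reached 1 FPKM, a filter that all 8 passed. limma called 4 of the 8 higher (*Hist1h1d*, *Hist1h1e*, *Hist1h1t* and *H1f0*) with an adjusted p below 0.05 and a fold beyond 1 on the log2 scale in either direction, where 2.87% of all genes tested were called higher, and 0 lower, where 4.97% were. At an unadjusted p under 0.05 with the same fold, 5 were higher, *Hist1h1b* in addition, against 7.32% of all genes, and 0 lower against 16.3%. edgeR on the recovered reads called the same 5 higher, against 8.75% of the genes it tested, and 0 lower, against 11.2%, and DESeq2 called 4 higher, against 4.33% of its genes, and 0 lower, against 3.89%. In 6 genes both *Eef1g*-cKO values exceeded both control values, against 24.6% of all genes, and in 1 they were both below, against 37.7%.

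The median log2 fold change of all genes tested was −0.23. Centring each library on its median raised it by 0.21, and *Hist1h1e* then stood at 3.50, *Hist1h1t* at 2.25 and *Hist1h1c* at 0.01 instead of −0.20. Without control replicate 1, and likewise without control replicate 2, the *Eef1g*-cKO pair alone gave the spread, and limma called 0 genes of the whole table by adjusted p and therefore 0 H1 genes. By unadjusted p it then called 5 and 3 H1 genes higher, against 5.23% and 4.57% of all genes. The folds stayed about as large, at 3.48 and 3.10 on the log2 scale for *Hist1h1e* and 2.22 and 1.85 for *Hist1h1t*.

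*Hist1h1t*, the testis gene, had 707 and 306 reads in control against 240 and 406 in *Eef1g*-cKO, which is 388 and 301 FPKM against 1458 and 1354 FPKM. Both *Eef1g*-cKO libraries were far above both control libraries, and the replicates of each genotype lay close together. Mean FPKM rose 4.08-fold, from 344 ± 61.7 to 1406 ± 73.8 (SD, n = 2 each), with a log2 fold change of 2.04 (SE 0.24) and an adjusted p of 0.0236 by limma. The adjusted p of limma was 0.0667 without control replicate 1 and 0.0889 without control replicate 2, and over 16 alternatives, edgeR and DESeq2 included, it ranged from 3.0e-14 to 0.0946. The log2 fold change ranged from 1.85 to 2.25. In control *Hist1h1t* was already among the well covered genes, at ranks 142 and 209 of the table by FPKM.

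Among the clustered somatic genes, *Hist1h1e* changed most. It had 349 and 149 reads in control against 259 and 516 in *Eef1g*-cKO, or 180 and 138 FPKM against 1479 and 1617 FPKM. *Eef1g*-cKO replicate 2 thus held more reads of this gene than either control library in spite of its lower depth, and the groups were far apart. The mean rose 9.75-fold, from 159 ± 29.9 to 1548 ± 97.7 FPKM (SD, n = 2 each), with a log2 fold change of 3.29 (SE 0.23) and an adjusted p of 0.0212 by limma. This was the largest change among the 8 genes under each of the 16 alternatives, which gave 3.10 to 3.50, and it ranked 17 from the top among the 10475 genes. The adjusted p of limma was 0.0563 without control replicate 1 and 0.0509 without control replicate 2, and it ranged from 2.8e-35 to 0.0946 over the alternatives.

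*Hist1h1d* encodes the protein closest to that of *Hist1h1e*. It had 540 and 205 reads in control against 86 and 183 in *Eef1g*-cKO, or 281 and 191 FPKM against 495 and 578 FPKM. The groups did not overlap, with replicates that differed more than those of *Hist1h1t*. The log2 fold change was 1.21 (SE 0.26) with an adjusted p of 0.0494 by limma, just inside the threshold. It became 0.163 without control replicate 1 (log2 fold change 1.48), 0.264 without control replicate 2 (0.93), 0.0617 when *Eef1g*-cKO replicate 1 was left out (1.32) and 0.0924 when replicate 2 of that genotype was (1.09), in a range from 5.8e-04 to 0.264 over the alternatives.

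*Hist1h1b* was the least abundant clustered gene, with 88 and 40 reads in control against 14 and 28 in *Eef1g*-cKO. Its 44.7 and 36.4 FPKM in control lay below its 78.7 and 86.4 FPKM in *Eef1g*-cKO. With 14 reads, however, the exact 95% Poisson interval of *Eef1g*-cKO replicate 1, which covers counting error only, ran from 43.1 to 132 FPKM and took in control replicate 1. The log2 fold change of 1.01 (SE 0.22) did not pass in limma (adjusted p 0.0519) and passed in edgeR (adjusted p 0.0470), with adjusted p from 0.0350 to 0.237 over the alternatives.

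*Hist1h1a*, known for its high level in spermatogonia and early spermatocytes, had 8977 and 12927 FPKM in control (16582 and 13332 reads) and 6163 and 6222 FPKM in *Eef1g*-cKO (1028 and 1891 reads). Both *Eef1g*-cKO values were below both control values, but the control libraries differed widely from each other. The log2 fold change of −0.80 (SE 0.44) did not pass in limma (adjusted p 0.270). In edgeR it was −0.74 with an adjusted p of 0.0225, within a range from 0.0108 to 0.656 over the alternatives, and none of them gave both an adjusted p under 0.05 and a fold beyond the limit.

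*Hist1h1c*, a somatic subtype gene of broad expression, had 2100 and 2544 FPKM in control (3775 and 2553 reads) and 2175 and 1849 FPKM in *Eef1g*-cKO (353 and 547 reads). The groups overlapped. Its log2 fold change of −0.20 (SE 0.29) did not pass in limma (adjusted p 0.656).

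Of the replacement genes, *H1f0*, known to accumulate in cells that have stopped dividing, was the least abundant of the 8. It had 25.9 and 28.1 FPKM in control (147 and 89 reads) and 70.2 and 68.5 FPKM in *Eef1g*-cKO (36 and 64 reads). The replicates of each genotype were nearly equal and the groups lay apart. Its log2 fold change was 1.33 (SE 0.22) with an adjusted p of 0.0348 by limma, which was 0.141 without control replicate 1 (log2 fold change 1.27) and 0.135 without control replicate 2 (1.39), in a range from 6.3e-04 to 0.141 over the alternatives. *H1fx* had 151 and 163 FPKM in control (398 and 240 reads) and 244 and 270 FPKM in *Eef1g*-cKO (58 and 117 reads). Both *Eef1g*-cKO values were above both control values, and its log2 fold change of 0.70 (SE 0.19) passed neither the fold limit nor the adjusted p of limma (0.0763). The adjusted p was 0.0144 in edgeR and 0.0452 in limma with median centring, within a range from 0.0144 to 0.254 over the alternatives, and none of them reached the fold limit.

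**Figure D1:**
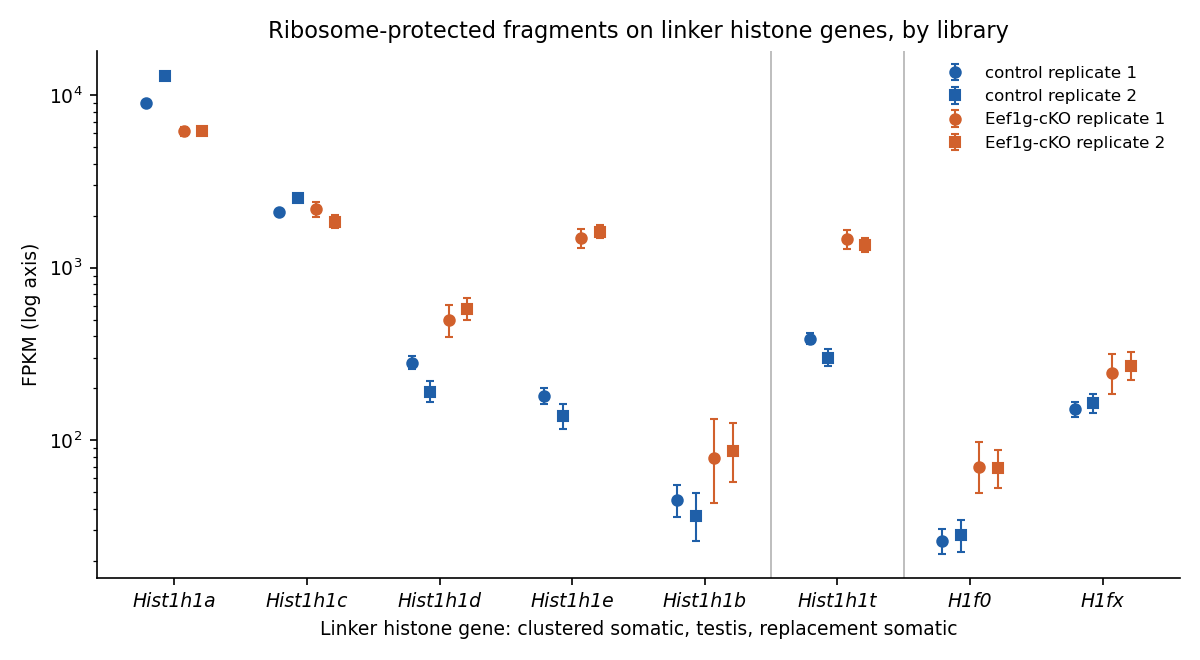
RPF level of each H1 gene in the 4 libraries, in FPKM on a log axis, as points with bars for the exact 95% Poisson interval of the reads (counting error only). *Hist1h1e* moved from 180 and 138 FPKM in control to 1479 and 1617 FPKM in *Eef1g*-cKO and *Hist1h1t* from 388 and 301 FPKM to 1458 and 1354 FPKM, whereas the libraries of *Hist1h1c* overlap.

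**Figure D2:**
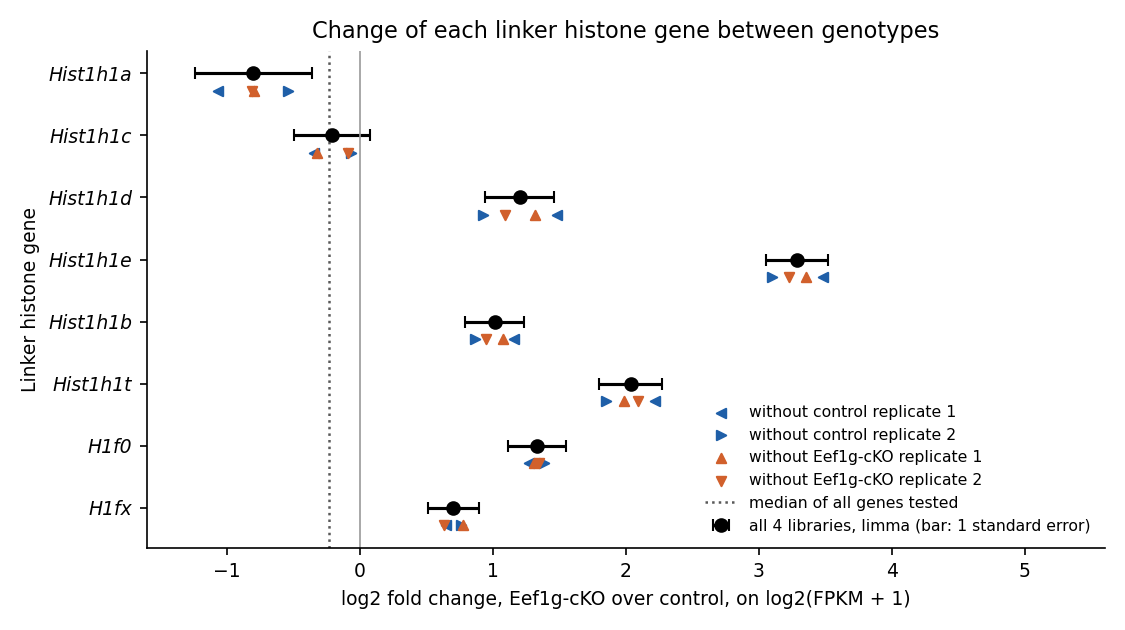
Log2 fold change of *Eef1g*-cKO over control for each H1 gene on log2(FPKM + 1), as the limma estimate with its standard error and the values without each library in turn, beside the median of all genes tested (dotted line, −0.23). Without 1 library *Hist1h1e* stays between 3.10 and 3.48 and *Hist1h1a* between −1.06 and −0.54.

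In control the H1 genes ranked by FPKM in the order *Hist1h1a*, *Hist1h1c*, *Hist1h1t*, *Hist1h1d*, *Hist1h1e*, *H1fx*, *Hist1h1b* and *H1f0*. Each lay above the next in both control libraries, except that *Hist1h1e* and *H1fx* overlapped. In *Eef1g*-cKO, *Hist1h1e* and *Hist1h1t* stood above *Hist1h1d* in both libraries, next to *Hist1h1c*. Several neighbours were not resolved by the Poisson intervals of their reads. In *Eef1g*-cKO replicate 1, *Hist1h1e* and *Hist1h1t* overlapped widely (1305 to 1671 and 1280 to 1655 FPKM), and in replicate 2 narrowly (1481 to 1763 and 1225 to 1492 FPKM). *Hist1h1c* and *Hist1h1e* overlapped in *Eef1g*-cKO replicate 2 (1698 to 2011 and 1481 to 1763 FPKM). *Hist1h1b* and *H1f0* overlapped in both *Eef1g*-cKO libraries (43.1 to 132 and 49.2 to 97.2 FPKM, then 57.4 to 125 and 52.8 to 87.5 FPKM) and in control replicate 2 (26.0 to 49.6 and 22.6 to 34.6 FPKM). Among all genes of the table, *Hist1h1e* went from ranks 353 and 584 in control to 53 and 52 in *Eef1g*-cKO, and *Hist1h1t* reached 55 and 57.

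Summed over the 8 genes, H1 reads made up 9109 and 12219 RPM in control and 9263 and 9197 RPM in *Eef1g*-cKO. The groups overlapped, and the ratio of their means, 0.866, became 1.01 without control replicate 2. The 7 somatic genes made up 8824 and 11998 RPM in control and 8191 and 8201 RPM in *Eef1g*-cKO, a ratio of 0.787 that became 0.929 without control replicate 2. Without *Hist1h1a* the other somatic genes came to 2136 and 2367 RPM in control and 3600 and 3566 RPM in *Eef1g*-cKO, 1.59-fold more. Most of that difference lay in *Hist1h1e*, at 141 and 108 RPM in control and 1157 and 1265 RPM in *Eef1g*-cKO. Leaving out both, the remaining 5 somatic genes gave 1996 and 2259 RPM against 2443 and 2302 RPM, a ratio of 1.12 with both *Eef1g*-cKO values narrowly above both control values.

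The make-up of this pool differed more between genotypes than its size. *Hist1h1a* supplied 73.9% and 79.2% of the summed H1 FPKM in control and 50.7% and 51.7% in *Eef1g*-cKO. *Hist1h1c* held a like share throughout, 17.3% and 15.6% in control against 17.9% and 15.4% in *Eef1g*-cKO. *Hist1h1e* supplied 1.48% and 0.843% in control against 12.2% and 13.4% in *Eef1g*-cKO, and *Hist1h1t* 3.19% and 1.84% against 12.0% and 11.2%. The shares of *Hist1h1a*, *Hist1h1e* and *Hist1h1t* did not overlap between genotypes, and those of *Hist1h1c* did. Shares of one pool depend on each other, so these are not independent observations.

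**Figure D3:**
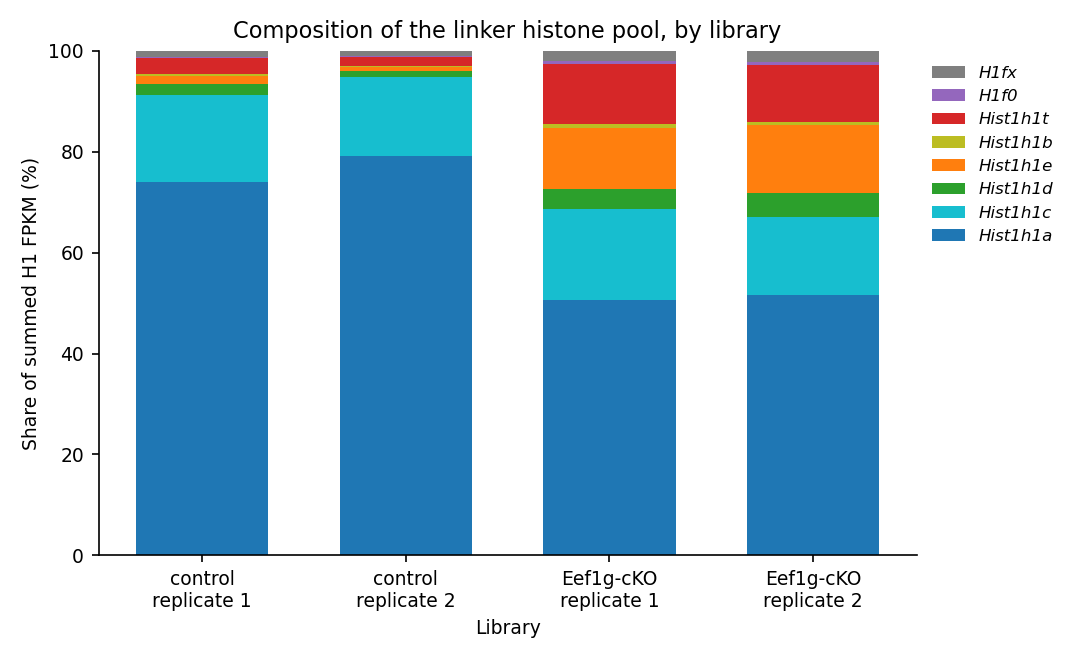
Share of each H1 gene in the summed H1 FPKM (percent, stacked) in each of the 4 libraries. *Hist1h1a* fills 73.9% and 79.2% of the control columns and 50.7% and 51.7% of the *Eef1g*-cKO columns, while *Hist1h1e* widens to 12.2% and 13.4% and *Hist1h1t* to 12.0% and 11.2%.

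Set against the somatic genes within each library, *Hist1h1t* amounted to 3.30% and 1.88% of their summed FPKM in control and to 13.6% and 12.7% in *Eef1g*-cKO. *Hist1h1a* exceeded *Hist1h1t* 23.1-fold and 43.0-fold in control against 4.23-fold and 4.60-fold in *Eef1g*-cKO. *Hist1h1c* exceeded it 5.41-fold and 8.46-fold in control against 1.49-fold and 1.37-fold in *Eef1g*-cKO. Such lower ratios were common to most of the table. Both *Eef1g*-cKO ratios to *Hist1h1t* were below both control ratios for 91.4% of the other 10474 genes tested and for 6 of the 7 somatic H1 genes, so the count says little about H1. *Hist1h1e* was the exception, and both its *Eef1g*-cKO ratios were above both control ratios, as for 0.726% of the 10474 genes. Its ratio to *Hist1h1t* was 0.464 and 0.458 in control against 1.01 and 1.19 in *Eef1g*-cKO. Ratios within a library do not depend on its scaling, and a ratio shows unequal change without showing which gene changed.

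The somatic genes share sequence, which limits how far their reads can be told apart. Of the 28-base windows of each coding sequence, a length within the range of RPFs, 36.0% of those of *Hist1h1d*, 31.4% of *Hist1h1e* and 30.6% of *Hist1h1c* also occurred in another H1 gene. *Hist1h1e* shared 175 of its 633 windows with *Hist1h1d* and 130 with *Hist1h1c*. In *Hist1h1b* the share found in another gene was 6.20% and in *Hist1h1a* 0.813%, and 0 windows of *Hist1h1t*, *H1f0* and *H1fx* occurred elsewhere in the genome. How reads that match several genes were counted is not given in the sources used here, so the levels of *Hist1h1c*, *Hist1h1d* and *Hist1h1e* are uncertain in this respect, and the part of shared reads in their values was not tested.

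By position, 5 of the 6 clustered H1 genes lie in the same stretch of the histone cluster as *Hist1h1t*, and *Hist1h1b* starts at −1915 kb from the *Hist1h1t* start. *Hist1h1d* starts at −141 kb, *Hist1h1e* at −73.3 kb, *Hist1h1c* at 43.0 kb and *Hist1h1a* at 67.9 kb. Of the 24 core histone genes tested in that stretch, limma called 3 higher and 1 lower by adjusted p. Over all genes it called 2.87% and 4.97%. By unadjusted p limma called 6 and 3 of the 24, edgeR 6 and 3, and DESeq2 6 and 1. The log2 fold changes of the 24 genes ran from −2.69 to 2.74, with a median of 0.19 (0.42 with 2 at the floor of 3 reads). Of the 17 core histone genes in the stretch that holds *Hist1h1b*, limma called 0 higher and 3 lower by adjusted p, 2 and 4 by unadjusted p, edgeR 1 and 2, and DESeq2 0 and 2, with a median of 0.08. The gene between *Hist1h1e* and *Hist1h1t* that limma called, *Hist1h2ac* at −11.9 kb, had a log2 fold change of 2.38 (adjusted p 0.0225 by limma). *Hist1h4c*, at 2.65 kb, had 0.15 (adjusted p 0.807 by limma), so that genes close to *Hist1h1t* differed. Both were singled out after their values were seen.

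**Figure D4:**
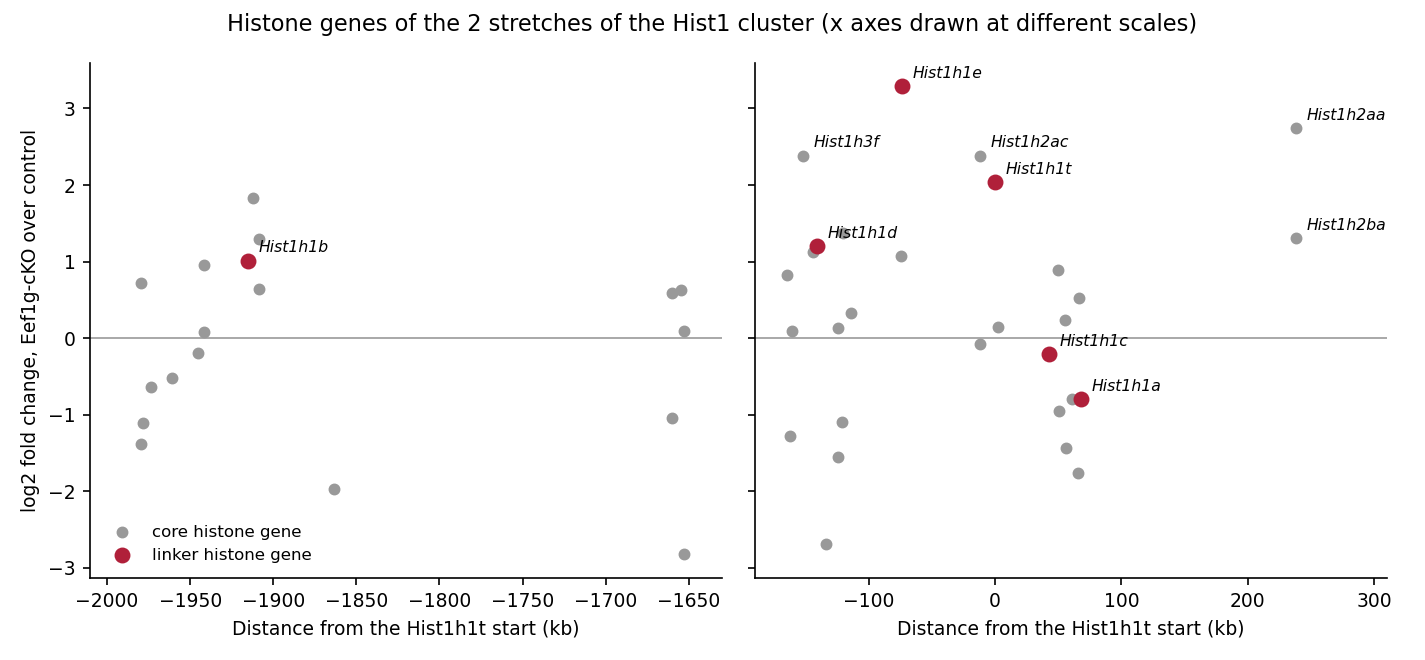
Log2 fold change (*Eef1g*-cKO over control, limma) of the clustered histone genes against distance from the *Hist1h1t* start in kb, with linker and core histone genes marked apart, in 2 panels of different horizontal scale. *Hist1h1e* (3.29), *Hist1h2ac* (2.38) and *Hist1h1t* (2.04) stand high, as do *Hist1h2aa* (2.74) at 238.6 kb and *Hist1h3f* (2.38) at −151.8 kb. *Hist1h1c* (−0.20, 0.01 with median centring) and *Hist1h1a* (−0.80) lie lower at 43.0 and 67.9 kb.

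The genes most like *Hist1h1t* over the 4 libraries, by Euclidean distance between centred log2(FPKM + 1) values among 6734 genes, were *Manf* (0.0848), *Fbxo47* (0.106), *Gm364* (0.158), *Fmr1nb* (0.169) and *Nptx2* (0.195). *Fbxo47*, an F-box gene known from meiotic prophase, had 62.6 and 49.0 FPKM in control and 223 and 206 FPKM in *Eef1g*-cKO. Among those most like the summed somatic genes were *Psmd2* (0.0308), *Cox6b2* (0.0384), *Hgs* (0.0460) and *Zfp326* (0.0807). The likeness rests on 4 libraries and carries no test.

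Other genes of H1 biology were taken from lists, each set beside all genes tested, whose median was −0.23 (0.07 with the 2728 genes at the floor of 3 reads), and nothing is called particular to a list. The 12 chaperones and acidic proteins that bind H1 had a median log2 fold change of −0.28. limma called 1 lower and 0 higher by adjusted p, 4 and 0 by unadjusted p, and edgeR 3 and 0. *Nasp*, a chaperone of linker and core histones and the most abundant of them, had 753 and 838 FPKM in control and 621 and 712 FPKM in *Eef1g*-cKO (log2 fold change −0.26, adjusted p 0.468 by limma). *Parp1* fell from 214 and 263 FPKM to 75.9 and 93.5 FPKM, with a log2 fold change of −1.48 (SE 0.22, adjusted p 0.0308 by limma). *Anp32a* (−1.67), *Anp32e* (−1.04) and *Ptma*, the last with 40 and 34 reads against 0 and 3, passed in limma by unadjusted p only.

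HMG proteins compete with H1 for nucleosomal binding sites. Of 10 listed genes 8 were tested, with 3 lower and 0 higher in limma by adjusted p, 5 and 0 by unadjusted p, and 3 and 0 in edgeR. Their median was −2.05, but 6 of the 8 had at most 3 reads in both libraries of a genotype, and with these at the floor it was −0.36. *Hmgb1* had 64 and 28 reads in control and 1 in each *Eef1g*-cKO library. *Hmgn5* had 99 and 42 against 2 and 2, and *Hmgn2* had 23 and 9 against 0 and 0. *Hmgn1* had 39.0 and 84.9 FPKM in control and 18.6 and 8.17 FPKM in *Eef1g*-cKO and passed in limma by unadjusted p only (log2 fold change −2.13). *Hmgb2*, the most abundant, had 90.9 and 131 FPKM in control and 73.0 and 52.8 FPKM in *Eef1g*-cKO, and its change of −0.81 on the log2 scale did not pass (adjusted p 0.123 by limma).

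The 20 tested genes of histone gene transcription and 3' end processing had a median of 0.00. limma called 0 by adjusted p and 1 higher and 0 lower by unadjusted p, *Cstf2* with a log2 fold change of 1.01, and edgeR and DESeq2 each called 1 higher and 0 lower. *Slbp*, which binds the stem-loop printed above, was the most abundant, at 131 and 178 FPKM in control and 241 and 242 FPKM in *Eef1g*-cKO. Its log2 fold change of 0.66 did not pass (adjusted p 0.119 by limma).

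The 26 genes of S phase and DNA replication, the phase in which replication-dependent histone genes are transcribed, had a median of −0.73 (−0.61 with 3 at the floor). limma called 7 lower and 0 higher by adjusted p, 11 and 1 by unadjusted p, edgeR 8 and 1, and DESeq2 7 and 1. *Mcm2*, a subunit of the replicative helicase, fell from 171 and 235 FPKM to 46.4 and 48.0 FPKM (log2 fold change −2.06, adjusted p 0.0225 by limma). *Dut* fell by 1.92 on the log2 scale (adjusted p 0.0352 by limma), and *Tk1* had 69 and 45 reads in control and 1 in each *Eef1g*-cKO library. *Cdt1* (−2.41) and, upward, *Ccne2* (1.19) passed in limma by unadjusted p only. *Mcm5*, the most abundant, had 247 and 410 FPKM in control and 315 and 279 FPKM in *Eef1g*-cKO, and its groups overlapped.

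Core histone genes of the clusters moved in both directions. Of 50 tested, limma called 4 higher and 4 lower by adjusted p, 10 and 8 by unadjusted p, and edgeR 8 and 6. DESeq2 called 7 and 3, and the median was 0.09 (0.19 with 3 at the floor). Among all genes tested the higher share was 2.87% in limma, 7.32% there without adjustment, 8.75% in edgeR and 4.33% in DESeq2. The lower share was 4.97%, 16.3%, 11.2% and 3.89% in that order. Lower core histone calls were thus about as frequent as among all genes in limma without adjustment and in edgeR. *Hist2h4* rose from 83.0 and 162 FPKM to 791 and 926 FPKM (log2 fold change 2.87, adjusted p 0.0253 by limma), and *Hist1h3f* had a log2 fold change of 2.38 (adjusted p 0.0379 by limma). *Hist2h2ac* (3.04) passed in limma by unadjusted p only, on 10 and 0 reads in control against 2 and 6 in *Eef1g*-cKO. *Hist1h2bj* fell from 2249 and 4851 FPKM to 677 and 320 FPKM (log2 fold change −2.82, adjusted p 0.0379 by limma), and *Hist1h3b* from 217 and 210 FPKM to 96.9 and 63.8 FPKM (−1.43, adjusted p 0.0379 by limma). *Hist1h4a* (−1.76) and *Hist3h2bb-ps* (−1.66) passed in limma by unadjusted p only.

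*Hist1h2aa* and *Hist1h2ba* encode the testis variants TH2A and TH2B and belong both to the core histone genes and to the 11 tested genes of replacement and testis core variants. *Hist1h2aa* rose from 1371 and 2044 FPKM in control to 12015 and 10412 FPKM in *Eef1g*-cKO (log2 fold change 2.74, SE 0.37, adjusted p 0.0296 by limma). *Hist1h2ba*, the most abundant in both lists, had 6874 and 8672 FPKM in control and 22176 and 16375 FPKM in *Eef1g*-cKO, and its log2 fold change of 1.30 did not pass by adjusted p (0.154 by limma). Of the 11, limma called 1 higher and 1 lower by adjusted p, 2 and 3 by unadjusted p, and edgeR 2 and 1, and the median was −0.70, or 0.07 with 4 at the floor. *Cenpa*, the centromeric H3 variant, fell from 53.1 and 79.0 FPKM to 25.4 and 23.3 FPKM (−1.38, adjusted p 0.0451 by limma). *H3f3a*, on 17 and 9 reads in control against 0 and 1, and *H2afj*, on 52 and 32 against 2 and 2, passed in limma by unadjusted p only.

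Enzymes and chromatin factors that modify H1 or act with it had a median of −0.04 over 13 tested genes. limma called 1 lower and 0 higher by adjusted p, 2 and 0 by unadjusted p, and edgeR 2 and 0. Of all genes, 4.97%, 16.3% and 11.2% were lower in that order, so lower calls by unadjusted p were about as frequent here. *Ehmt2*, a histone methyltransferase, fell from 47.1 and 61.0 FPKM to 18.7 and 12.6 FPKM (−1.74, adjusted p 0.0365 by limma), and *L3mbtl2* (−1.14) passed in limma by unadjusted p only. *Hells*, a chromatin remodeller and the most abundant, had 274 and 241 FPKM in control and 262 and 240 FPKM in *Eef1g*-cKO. Of 6 further linker histone symbols, 0 could be analysed here.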

How the data were processed

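Ribo-seq of 4 libraries (2 control, 2 *Eef1g*-cKO) was analysed from a single table. Libraries were made with the QEZ-seq kit after RNase I digestion, and RiboMiner is named for the analysis. The processing notes of the submitters name cutadapt, Bowtie and STAR and the builds mm10 and hg38, without versions or roles. The counter and its treatment of reads matching several genes are not given in the sources used here. The authors deposited a normalized signal, in which the reads of a gene are scaled by a factor per library, and FPKM, together with the gene length, another deposited value. The deposited length equalled that of the RefSeq locus in GRCm38.p6 for each H1 gene except *H1f0* (2289 against 2293 bases). The fold changes, errors and p-values of the authors' own comparison stand in the same table and were not used.

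Whole reads were recovered by dividing the deposited signal by its smallest value above 0 in each library, and 100% of values came out whole within 0.01. Counted reads per library were derived from reads, length and FPKM. limma 3.58.1 (lmFit and eBayes with trend, R 4.3.3) was run on log2(FPKM + 1) without a block, for genes whose mean reached 1 FPKM, with Benjamini-Hochberg adjustment over all of them. Fold changes on this scale understate those of low genes. An exact permutation test of 2 against 2 libraries cannot go below a two-sided p of 0.333, so none is given. edgeR 4.0.16 (quasi-likelihood) and DESeq2 1.42.0 on the recovered reads were alternatives, as were other pseudocounts, filters and scalings, an untrended prior, thinning to equal reads, a replicate block and leaving out each library. The models were tested on simulated counts. Sequence features were computed with Python 3.11.15 and Biopython 1.88 from RefSeq.

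The members and the lists were chosen with earlier results of these data known. Named genes were the 8 H1 genes, of each list of H1 biology the genes called by unadjusted p (at most 4 of largest change in each direction) and the most abundant gene, of each cell type list the most abundant gene and markers at 0, and genes from the 5 closest to *Hist1h1t* and to the somatic sum among those averaging 5 FPKM or more and having 10 or more reads in each control library. *Hist1h2ac* and *Hist1h4c* lie outside these rules and were added after their values were seen, and some markers not analysed here are named as examples.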

Additional observations from a re-analysis of the deposited data

How the results depend on the processing

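Under all 16 alternatives the log2 fold change was positive for *Hist1h1b*, *Hist1h1d*, *Hist1h1e*, *Hist1h1t*, *H1f0* and *H1fx*, called or not, and negative for *Hist1h1a*. That of *Hist1h1c* turned from −0.20 to 0.00904 with median centring. H1 genes higher by adjusted p, 4 in limma, numbered 2 with a pseudocount of 0.1 FPKM, 0 with an untrended prior and 0 after thinning to equal reads (5 by unadjusted p in both, 5 in edgeR), and 0 to 3 without 1 library. By unadjusted p they numbered 3 to 5 without 1 library. *Hist1h1e* had 3.29 with the untrended prior (adjusted p 0.0561) and 3.38 after thinning (adjusted p 0.0946), and *Hist1h1t* 2.04 (adjusted p 0.0633) and 1.87 (adjusted p 0.0946). Without 1 library they ran from 3.10 to 3.48 and from 1.85 to 2.22. Over the whole table, genes higher by adjusted p, 301 in limma, numbered 29 with the pseudocount of 0.1 FPKM, 521 with median centring, 705 in edgeR, 688 in edgeR with no filter, 502 in DESeq2, 0 with the untrended prior or after thinning (793 and 688 by unadjusted p), and 0 to 537 without 1 library. Genes lower, 521 in limma, numbered 47 with that pseudocount, 904 in edgeR, 876 in edgeR with no filter, 0 with the untrended prior or after thinning (1811 and 1191 by unadjusted p), and 0 to 1432 without 1 library. Higher genes made up 36.6% of the adjusted calls, 33.4% with a pseudocount of 5 FPKM, 57.6% with median centring and 52.7% in DESeq2. Of the unadjusted calls they made up 31.0%, 27.9% with no filter, 46.2% with median centring and 44.4% in DESeq2. By unadjusted p, 767 genes were higher, 496 with a pseudocount of 5 FPKM, 1157 with median centring and 479 to 999 without 1 library, and 1705 were lower, 1001 with that pseudocount, 1064 with a filter at 5 FPKM, 958 in DESeq2 and 795 to 2270 without 1 library. With the replicate block limma called 822 genes lower and 424 higher (4.05% of those tested), 5 H1 genes among the latter. Deviations of same-numbered libraries had a correlation of −0.00804 across genes, which are not independent. With a median of 5 and 8 reads per gene in *Eef1g*-cKO replicates 1 and 2, this cannot show whether same-numbered libraries were paired. The ratio of somatic RPM, 0.787, was 0.764 over reads of protein-coding genes and 0.683 to 0.929 without 1 library, and that of *Hist1h1t*, 4.08, was 3.91 and 3.62 to 4.68. The cause of these shifts was not tested. Depth in *Eef1g*-cKO limits *Hist1h1b*, *H1f0* and *H1fx* most, with 14, 36 and 58 reads in the shallowest library.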
